A study of Homo sapiens with 8 samples.

Results

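The YAP and TEAD pathway was followed through 9 genes, YAP1, WWTR1, TEAD1, CCN1, CCN2, ANKRD1, AMOTL2, AJUBA and LATS2, out of 63241 Ensembl gene identifiers measured. The genes were given by symbol, and each of the 9 symbols matched a single identifier. CCN1 is also known as CYR61 and CCN2 as CTGF. All 9 passed the filter on low values, which required 1 FPKM or more in 2 or more libraries and kept 15173 genes.

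HepG2 and Huh7 cells are long-established lines from human liver tumours. Sorafenib is a multikinase inhibitor used against liver cancer, and the sorafenib-resistant (SR) lines were raised from each parental line by exposure to increasing concentrations of the drug. The sequenced libraries, made from polyadenylated RNA, numbered 8, with 2 for each pairing of a cell line with WT or SR status (4 groups), where WT means the parental, drug-sensitive cells labelled as control and SR the resistant cells labelled with sorafenib as treatment. No engineered allele was named for any group, and all 8 libraries were labelled as a single batch. Nothing stated whether the 2 libraries of a group came from separate cultures, so each p-value measures only the spread between these libraries, which may be technical. Whether SR cells were in sorafenib when RNA was taken was not stated, so acquired resistance and acute exposure cannot be told apart.

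YAP1 and TAZ, the product of WWTR1, are transcriptional coactivators that do not bind DNA themselves and reach their target genes through the TEAD factors. In the Hippo pathway the MST kinases act through the LATS kinases, which phosphorylate YAP1 and TAZ. This holds YAP1 and TAZ in the cytoplasm and leads to their degradation. Among the target genes, CCN1 and CCN2 encode secreted matricellular proteins and ANKRD1 an ankyrin repeat protein, while AMOTL2 and LATS2 encode proteins that restrain YAP1 in turn. In the liver the pathway is known for its control of organ size, of the choice between hepatocyte and biliary identity, and of tumour growth. These RNA levels do not report the phosphorylation or location of YAP1 or TAZ, which set their activity.

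The expression profiles did not follow the labelled cell line. Both HepG2 WT libraries, the first HepG2 SR library and the second library of each Huh7 group were alike, with Pearson's r from 0.914 to 0.977 across the tested genes. Huh7 WT replicate 1 and Huh7 SR replicate 1 were alike with each other (r = 0.965), and HepG2 SR replicate 2 stood apart, with its highest r, 0.846, to Huh7 SR replicate 1. Of the hepatocyte markers, albumin (ALB) stood between 2139 and 4713 FPKM in the HepG2 libraries, at 604 FPKM in Huh7 WT replicate 2, at 2891 FPKM in Huh7 SR replicate 2 and at no more than 42.3 FPKM in the replicate 1 libraries of Huh7. The biliary keratin KRT19 lay between 155 and 760 FPKM in the 5 like libraries and between 0.179 and 2.37 FPKM in the other 3. Groups below are those of the labels, and the SR versus WT change over both lines is also given for the 5 like libraries alone.

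The letters GGAATG, the core of the element that TEAD factors bind, were looked for on both strands (the reverse complement is CATTCC) in the 250 bases before the transcription starts listed by RefSeq (GRCh38.p14). Entries were found for 7 of the 9 genes, with 10 starts in all, and 5 genes held at least 1 match. Of 35116 promoters of that length, 11.9% held at least 1 match and 0.0826% held 3 or more. CCN2 held 3, at 169, 104 and 95 bases before its start. ANKRD1 held 2, and YAP1, AMOTL2 and AJUBA 1 each. The matches of AMOTL2 and AJUBA lay before the further downstream of their starts. WWTR1 and LATS2 held none in these windows. A match is a description of the letters and shows no binding. The sequences are shown because CCN2 and ANKRD1 had the widest ranges of level among the 9 genes, and YAP1 is the coactivator itself. They run 5′ to 3′ on the gene's strand, with the match in capitals. CCN2 is at chr6:131951374-131951622 on the minus strand, ANKRD1 at chr10:90921277-90921337 on the minus strand, and YAP1 at chr11:102110197-102110446 on the plus strand. The ANKRD1 stretch ends where a longer annotated exon begins.
CCN2: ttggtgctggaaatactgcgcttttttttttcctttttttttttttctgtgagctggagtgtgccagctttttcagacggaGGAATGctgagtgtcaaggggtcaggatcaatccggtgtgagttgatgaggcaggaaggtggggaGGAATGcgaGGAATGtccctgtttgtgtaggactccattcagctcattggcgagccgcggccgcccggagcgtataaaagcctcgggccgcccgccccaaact
ANKRD1: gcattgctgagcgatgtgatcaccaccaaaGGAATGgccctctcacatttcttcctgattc
YAP1: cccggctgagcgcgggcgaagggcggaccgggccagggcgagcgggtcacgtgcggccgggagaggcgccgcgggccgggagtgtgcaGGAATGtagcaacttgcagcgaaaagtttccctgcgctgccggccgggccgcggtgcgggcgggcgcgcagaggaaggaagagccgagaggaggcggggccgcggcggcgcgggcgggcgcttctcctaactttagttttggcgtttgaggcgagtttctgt

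The remaining matches lie inside annotated exons and are shown as 26 bases each, all on the minus strand. The sites are at chr10:90921200-90921225 for ANKRD1, chr3:134374501-134374526 for AMOTL2 and chr14:22976886-22976911 for AJUBA.
ANKRD1, downstream match: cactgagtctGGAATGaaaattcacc
AMOTL2: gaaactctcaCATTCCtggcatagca
AJUBA: gaagttggctGGAATGaagccaaagc

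The same windows were searched for the AP-1 element TGANTCA, where N is any base, and for the CArG element that SRF binds. ANKRD1 held 1 AP-1 match, as 6.57% of all promoters held at least 1. No CArG match lay in the windows of the 7 genes, and 1.16% of all promoters held one. The AP-1 and TEAD letters of ANKRD1 did not overlap.

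Values are in FPKM, a unit of sequenced fragments already scaled for library size and transcript length, so levels of different genes can be set side by side. FPKM carry no read totals, and the steps in the low values were too faint to give a depth for each library, so no counting interval is given. Between 12829 and 13386 genes stood at 1 FPKM or more in each library. The 9 genes summed to 779 and 481 FPKM in HepG2 WT, 335 and 157 FPKM in HepG2 SR, 358 and 163 FPKM in Huh7 WT, and 147 and 315 FPKM in Huh7 SR. Both HepG2 SR sums were below both HepG2 WT sums, and the Huh7 sums overlapped. ANKRD1 was the most abundant of the 9 in 3 of the 4 HepG2 libraries, and it was the least abundant in HepG2 SR replicate 2 and Huh7 SR replicate 1.

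**Figure D1:**
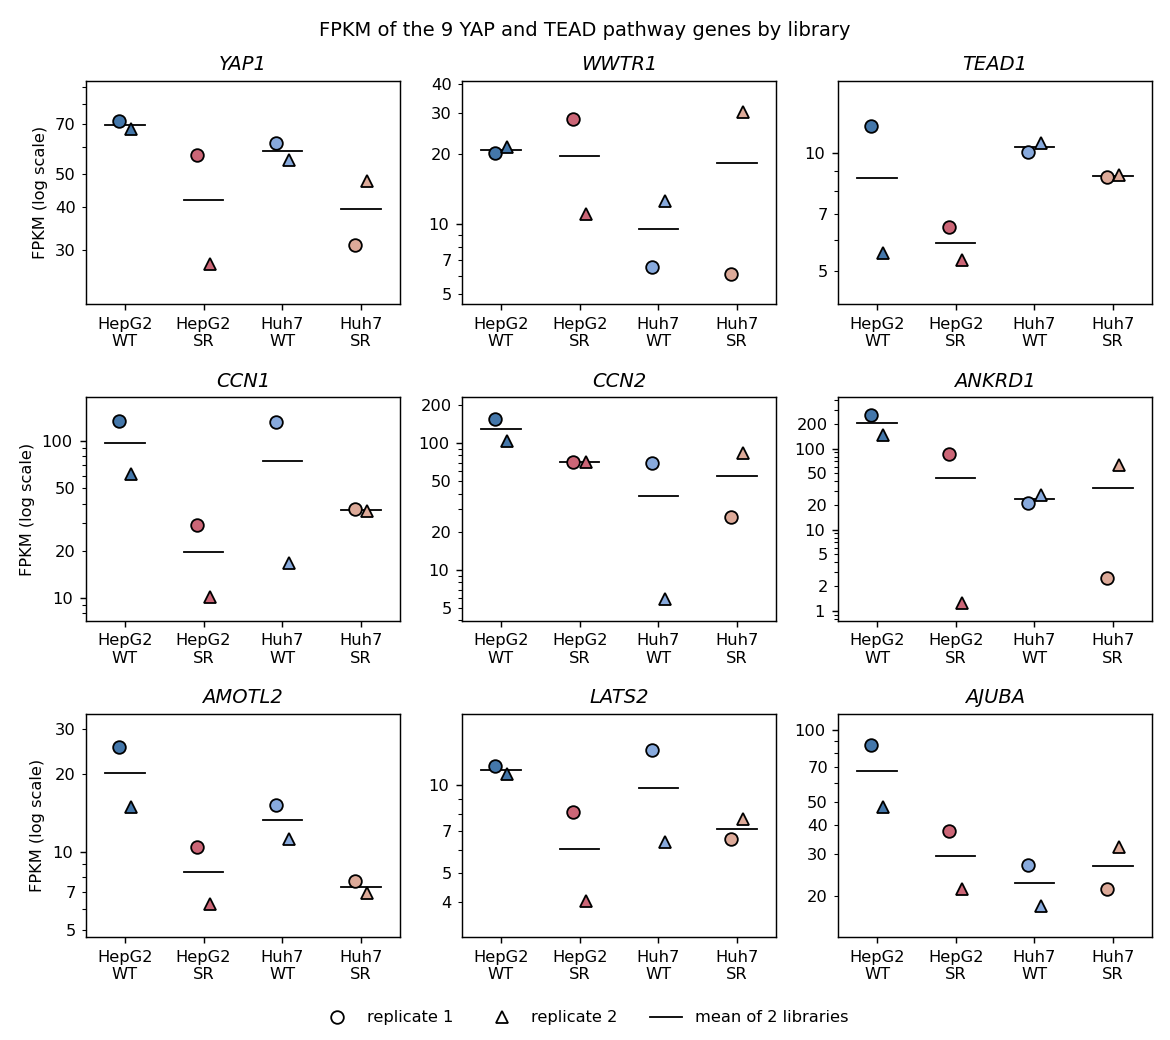
FPKM of each of the 9 genes (vertical axis, log scale, a different range in each panel) in the 4 groups, with replicate 1 as a circle, replicate 2 as a triangle and the mean of the 2 libraries as a line. The AMOTL2 panel shows all 4 SR libraries, 6.29 to 10.5 FPKM, below all 4 WT libraries, 11.3 to 25.6 FPKM, and the ANKRD1 panel shows HepG2 SR replicate 2 at 1.23 FPKM.

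Among the coactivators, YAP1 (chr11:102110461-102233423, plus strand, GENCODE release 29 on GRCh38) was more abundant than WWTR1 in all 8 libraries, by 1.56 to 9.44 times. YAP1 read 71.3 and 67.7 FPKM in HepG2 WT, 56.8 and 27.2 FPKM in HepG2 SR, 61.7 and 54.9 FPKM in Huh7 WT, and 31.0 and 47.7 FPKM in Huh7 SR. Within each cell line both SR libraries were below both WT libraries. Over both lines a single pair overlapped, since HepG2 SR replicate 1 stood above Huh7 WT replicate 2. The log2 fold change of YAP1, SR minus WT, was -0.80 (standard error 0.43) in HepG2, -0.59 (0.43) in Huh7 and -0.70 (0.30, unadjusted p = 0.0568) over both lines, and none of these passed the threshold. The WT libraries of a line were close to each other for YAP1, at 69.5 ± 2.54 FPKM (SD) in HepG2 WT and 58.3 ± 4.79 FPKM in Huh7 WT.

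WWTR1 (chr3:149517235-149736714, minus strand), which encodes TAZ, did not follow YAP1. Its libraries read 20.4 and 21.4 FPKM in HepG2 WT, 28.4 and 11.1 FPKM in HepG2 SR, 6.53 and 12.6 FPKM in Huh7 WT, and 6.13 and 30.5 FPKM in Huh7 SR. The SR libraries lay on both sides of the WT libraries in each line. The 2 lowest values were those of Huh7 WT replicate 1 and Huh7 SR replicate 1, the pair of libraries that were alike with each other. Its SR minus WT log2 change was -0.21 (0.77) in HepG2 and 0.57 (0.77) in Huh7, and the 95% confidence interval over both lines ran from -1.12 to 1.47.

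TEAD1 (chr11:12674591-12944483, plus strand), a factor through which both coactivators reach DNA, had the narrowest range of the 9 genes, 2.19 times from lowest to highest library. Its libraries read 11.7 and 5.56 FPKM in HepG2 WT, 6.46 and 5.36 FPKM in HepG2 SR, 10.1 and 10.6 FPKM in Huh7 WT, and 8.66 and 8.77 FPKM in Huh7 SR. The Huh7 SR libraries were below the Huh7 WT libraries by less than 2 FPKM, and the HepG2 groups overlapped. On the log2 scale SR minus WT was -0.41 (0.41) in HepG2 and -0.22 (0.41) in Huh7, with intervals that covered 0 in both. Of the other TEAD genes, TEAD4 was the most abundant in HepG2 WT, at 27.2 and 27.5 FPKM, and stood at 27.2 and 6.08 FPKM in HepG2 SR.

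CCN1 (chr1:85580761-85583962, plus strand), a secreted matricellular protein and a much used readout of YAP1, read 134 and 61.4 FPKM in the HepG2 WT libraries against 29.4 and 10.2 FPKM in the HepG2 SR libraries. In Huh7 it stood at 132 and 16.7 FPKM in WT and at 37.0 and 36.0 FPKM in SR. The HepG2 groups did not overlap, whereas in Huh7 both SR libraries lay between the 2 WT libraries. The log2 fold change was -2.31 (0.97, unadjusted p = 0.0493) in HepG2 and -0.37 (0.97) in Huh7.

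CCN2 (chr6:131948176-131951373, minus strand), the other matricellular target, read 156 and 103 FPKM in the HepG2 WT libraries against 71.4 and 70.3 FPKM in the HepG2 SR libraries. In Huh7 it stood at 69.9 and 5.86 FPKM in WT and at 25.9 and 83.3 FPKM in SR. The HepG2 groups did not overlap and the Huh7 groups did, with Huh7 WT replicate 2 the lowest of all 8 libraries. SR minus WT for CCN2 was -0.83 (1.06) on the log2 scale in HepG2 and 1.11 (1.06) in Huh7. CCN1 and CCN2 did not keep a fixed ratio, and CCN2 over CCN1 ran from 0.351 in Huh7 WT replicate 2 to 6.87 in HepG2 SR replicate 2. CCN2 was above CCN1 in all 4 HepG2 libraries and in Huh7 SR replicate 2, and below it in the other 3.

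ANKRD1 (chr10:90912096-90921276, minus strand), a target that encodes a nuclear and sarcomeric ankyrin repeat protein, had the widest range, 213 times between its extremes. The HepG2 WT libraries held 263 and 149 FPKM and the HepG2 SR libraries 86.5 and 1.23 FPKM, without overlap. In Huh7 it stood at 21.6 and 26.7 FPKM in WT and at 2.51 and 62.1 FPKM in SR, so the SR libraries lay on either side. The 2 lowest values were in HepG2 SR replicate 2 and Huh7 SR replicate 1. The log2 fold change in HepG2 was -3.83 with a standard error of 1.86, and without HepG2 SR replicate 2 it was -1.18.

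AMOTL2 (chr3:134355874-134375479, minus strand) encodes an angiomotin that binds YAP1 and holds it at cell junctions, and is itself a YAP1 target. Its libraries read 25.6 and 14.9 FPKM in HepG2 WT, 10.5 and 6.29 FPKM in HepG2 SR, 15.3 and 11.3 FPKM in Huh7 WT, and 7.72 and 6.96 FPKM in Huh7 SR. AMOTL2 was the 1 gene of the 9 in which all 4 SR libraries were below all 4 WT libraries, as in 2.17% of the tested genes. The margin was small, since the highest SR library stood at 10.5 FPKM and the lowest WT library at 11.3 FPKM, both among the 5 like libraries. Rescaling the libraries to a common sum or quantile normalization left that separation in place. The group means were 20.3 ± 7.56 FPKM (SD) in HepG2 WT, 8.40 ± 2.98 FPKM in HepG2 SR, 13.3 ± 2.84 FPKM in Huh7 WT and 7.34 ± 0.541 FPKM in Huh7 SR.

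LATS2 (chr13:20973032-21061547, minus strand) encodes a kinase that phosphorylates YAP1 and TAZ. Its libraries read 11.6 and 10.9 FPKM in HepG2 WT, 8.11 and 4.01 FPKM in HepG2 SR, 13.3 and 6.40 FPKM in Huh7 WT, and 6.58 and 7.64 FPKM in Huh7 SR. The HepG2 groups did not overlap, and in Huh7 both SR libraries lay between the WT libraries. The log2 fold change was -0.86 (0.46) in HepG2 and -0.34 (0.46) in Huh7.

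AJUBA (chr14:22971174-22982642, minus strand) encodes a LIM protein that binds LATS kinases and limits their action on YAP1. Its libraries read 86.9 and 47.3 FPKM in HepG2 WT, 37.5 and 21.4 FPKM in HepG2 SR, 27.0 and 18.1 FPKM in Huh7 WT, and 21.3 and 32.2 FPKM in Huh7 SR. Both HepG2 SR libraries were below both HepG2 WT libraries, and the Huh7 groups overlapped. The gene overlaps AL132780.3 on the same strand, which was listed at no more than 1.42 FPKM in any library. No gene that overlaps one of the other 8 reached 1 FPKM.

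SR was compared with WT by limma in a model of 4 group means, fitted to log2(FPKM + 1) of the 8 libraries. A gene was called at the thresholds of the study, an unadjusted p under 0.05 and a log2 fold change over 0.5 in size. In HepG2, 3 of the 9 genes were called, all lower in SR, against 2.14% of the tested genes called in either direction and 1.27% called lower. AMOTL2 was called at -1.17 (standard error 0.42, unadjusted p = 0.0269 from limma), AJUBA at -1.15 (0.47, unadjusted p = 0.0465) and CCN1 at the value given above. None was called higher, against 0.877% of the tested genes. All 9 had a log2 fold change below 0, as 52.2% of the tested genes did, and their median was -0.86 against -0.03 for all tested genes. After Benjamini-Hochberg adjustment over 15173 genes none of the 9 passed, with an adjusted p from limma of 0.956 or more. Without HepG2 SR replicate 2, or without HepG2 WT replicate 1, none of the 9 was called, against 0.376% and 0.481% of the tested genes. Without HepG2 SR replicate 1 there were 6, against 11.5% of the tested genes.

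In Huh7 none of the 9 was called by limma, against 1.87% of the tested genes called in either direction (0.942% higher and 0.923% lower), and none had an unadjusted p under 0.05. The 6 genes below 0 (55.3% of the tested genes were) ran from -0.76 (0.42) for AMOTL2 to -0.22 for TEAD1, and the 3 above 0 were AJUBA, WWTR1 and CCN2, at 0.23, 0.57 and 1.11. The median of the 9 was -0.34 against -0.06 for all tested genes. Standard errors reached 1.86 for ANKRD1, so large changes in either direction were not detectable for that gene. Deviations from the group mean correlated at 0.796 between same-numbered Huh7 WT and SR libraries, and this fit did not pair them.

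Over both cell lines AMOTL2 was the 1 gene of the 9 called, lower in SR at -0.97 (0.29, unadjusted p = 0.0139), against 3.93% of the tested genes called in either direction, 2.03% lower and 1.9% higher. Its adjusted p from limma was 0.998, and without HepG2 WT replicate 1 its log2 fold change was -0.78 with an unadjusted p of 0.0609. CCN1 stood at -1.34 (0.69) and ANKRD1 at -2.29 (1.31), both short of the threshold, and CCN2 at 0.14 (0.75). The median of the 9 was -0.60 against -0.05 for all tested genes, and 7 of the 9 were below 0, as 55.1% of the tested genes were.

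**Figure D2:**
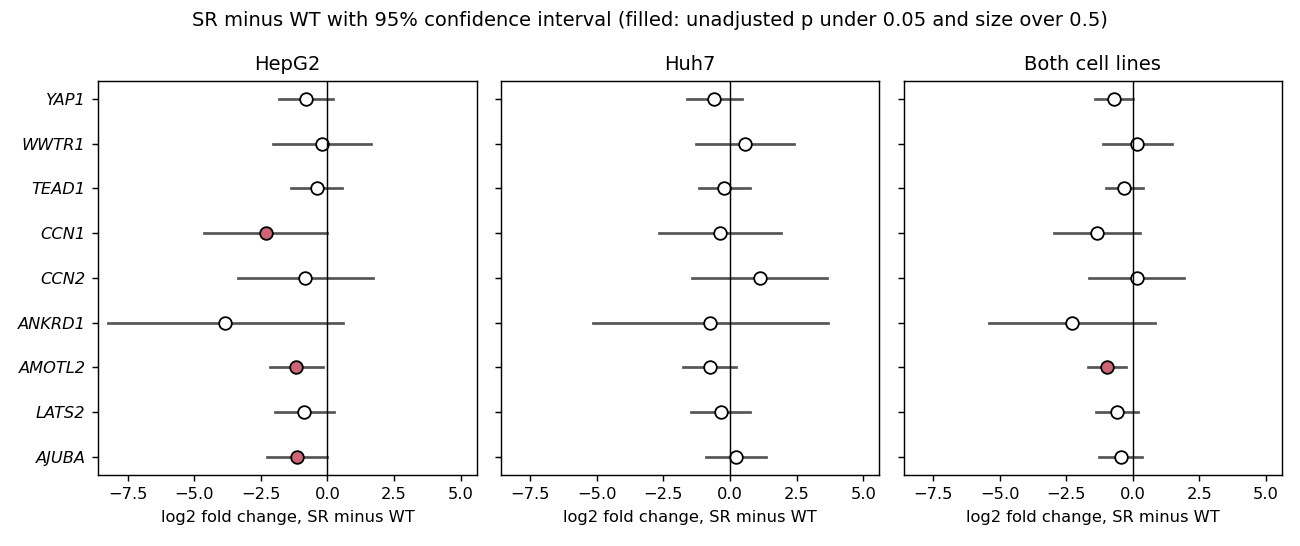
Log2 fold change of SR minus WT (horizontal axis) for each of the 9 genes (vertical axis) in HepG2, in Huh7 and over both lines, with the 95% confidence interval from limma as a bar and called genes as filled points. AMOTL2, AJUBA and CCN1 are filled in HepG2, no gene is filled in Huh7, and AMOTL2 is filled over both lines, while the ANKRD1 bar in HepG2 runs from -8.24 to 0.59.

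Counting libraries instead, both HepG2 SR libraries were below both HepG2 WT libraries for 7 of the 9 genes, all but WWTR1 and TEAD1, as for 20.1% of the tested genes. In Huh7 this held for AMOTL2, TEAD1 and YAP1, 3 of the 9, as for 12.9% of the tested genes. With the 8 libraries, none of the 9 had every SR library above every WT library in either line, as 18.1% of the tested genes did in HepG2, 9.06% in Huh7 and 1.52% over both lines. The counts in Huh7 turned on single libraries. Without Huh7 WT replicate 2, CCN1 and LATS2 joined the 3 genes below in Huh7 (31% of the tested genes), and over both lines AMOTL2, YAP1, CCN1 and LATS2 were below (3.05%). Without Huh7 SR replicate 2, ANKRD1 and WWTR1 joined them in Huh7 instead (29.8%). Without Huh7 WT replicate 1, 4 genes had SR above WT in Huh7, AJUBA, CCN1, CCN2 and LATS2 (25.3%), and without Huh7 SR replicate 1 these were AJUBA, ANKRD1, CCN2 and WWTR1 (26%).

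Without all 3 libraries that stood apart, the same 7 genes were below in HepG2 (32.2%) and WWTR1 was above (31.7%). Huh7 then had 1 library in each group, with the same 3 genes below (57.2%) and the other 6 above (41.3%). Over both lines AMOTL2 was still below (13.9%), and WWTR1 was above (9.27%).

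The cell lines were also compared with each other. AJUBA was called lower in Huh7 than in HepG2, at -0.80 (0.34, unadjusted p = 0.0490), against 4.9% of the tested genes called in either direction, 2.87% lower and 2.04% higher. It was the 1 gene of the 9 called, with an adjusted p from limma of 0.813, and it was not called without HepG2 WT replicate 1, at -0.58. It was not called either without HepG2 SR replicate 1, Huh7 WT replicate 2 or Huh7 SR replicate 1. CCN2 stood at -1.56 (0.75, unadjusted p = 0.0773) and ANKRD1 at -1.45 (1.31). The difference between the lines in SR versus WT was above 0 for all 9 genes, from 0.18 for TEAD1 to 3.08 (2.63) for ANKRD1, whereas 52.4% of the tested genes were below 0. None of these differences was called, against 0.606% of the tested genes (0.369% above 0 and 0.237% below), so the lines were not shown to differ in their SR versus WT change. AJUBA came nearest, at 1.38 (0.67, unadjusted p = 0.0788).

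Taking SR minus WT between libraries of the same replicate number, as a description with no test, showed where the directions parted. In HepG2 replicate 1, 6 of the 9 genes were lower by over 0.5 on the log2 scale, as were 13.3% of the tested genes, and none was higher by over 0.5, as 14.1% were. In HepG2 replicate 2 there were 8 lower, against 31.5%, and none higher, against 25.7%. In Huh7 replicate 1 there were 6 lower, against 12.1%, and none higher, against 13.9%, and all 9 genes were below 0. In Huh7 replicate 2 the picture turned, with AMOTL2 lower by over 0.5 (26.2% of the tested genes) and 5 genes higher by over 0.5 (18% of the tested genes), CCN2, WWTR1, ANKRD1, CCN1 and AJUBA. The medians of the 9 genes were -1.11, -1.13, -0.91 and 0.80 in that order. AMOTL2, YAP1 and TEAD1 were lower in SR in 4 of 4 such comparisons, CCN1, CCN2, ANKRD1, AJUBA and LATS2 in 3 of 4 and WWTR1 in 2 of 4. TEAD1 was lower by only -0.044 in HepG2 replicate 2. Of all tested genes 49.2%, 52.7%, 48.7% and 57.2% were below 0 in these comparisons, in the same order. The share of them lower in all 4 was not counted. HepG2 replicate 2 set a library that stood apart against 1 of the 5 like libraries.

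**Figure D3:**
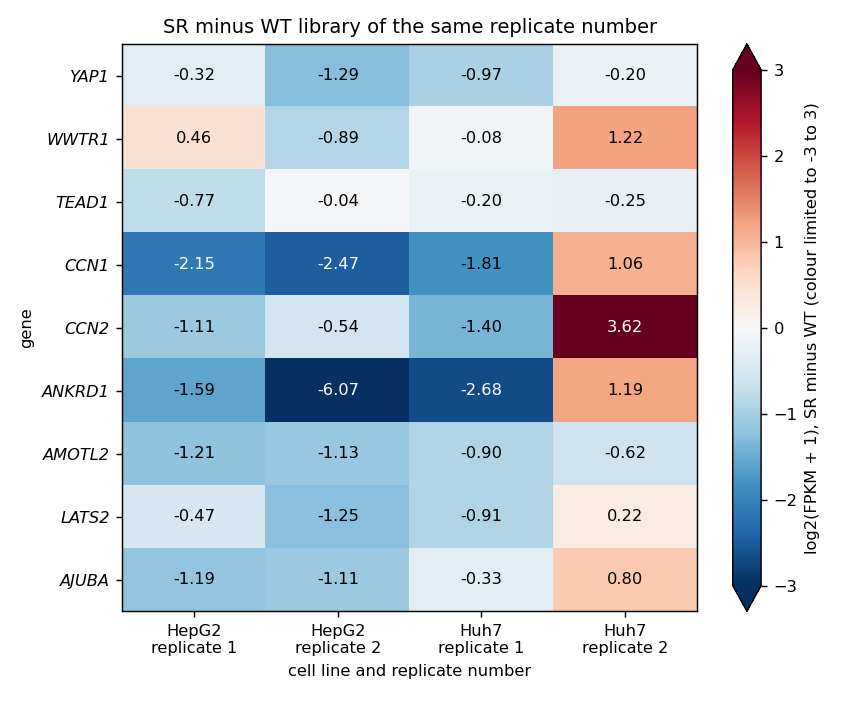
SR minus WT in log2(FPKM + 1), shown as colour and number, for each of the 9 genes (rows) between libraries of the same cell line and replicate number (columns), with no test. CCN1 reads -2.15, -2.47, -1.81 and 1.06 from left to right, and CCN2 reads 3.62 in Huh7 replicate 2.

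Huh7 WT replicate 2 had the lowest CCN2 and AJUBA of all 8 libraries, with CCN1 at 16.7 FPKM. In the same library GADD45A stood at 279 FPKM and ATF3, a stress-induced factor, at 65.8 FPKM, the highest of all libraries for both. Their part in the difference was not tested.

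Within the 5 like libraries alone, with the cell line as a term, the SR versus WT changes of the target genes were smaller in size for CCN1, at -0.45 (0.72), and for ANKRD1, at -0.17 (0.63). CCN2 was not smaller, at 1.08 (1.05). AJUBA stood at -0.09 and LATS2 at -0.15. This fit averages the 2 lines, which went opposite ways for these 5 genes. CCN1, CCN2, ANKRD1, AJUBA and LATS2 were lower in SR in HepG2 (32.2% of the tested genes were). In Huh7, with 1 library in each group, they were higher in SR (41.3%). CCN1 stood at -1.59 in HepG2 and 1.06 in Huh7, and ANKRD1 at -1.18 and 1.19. AMOTL2 kept its direction at -0.75 (0.32, unadjusted p = 0.0681) and was not called, and YAP1 stood at -0.25 (0.19). WWTR1 was called higher, at 0.76 (0.27, unadjusted p = 0.0391), with SR libraries at 28.4 and 30.5 FPKM and WT libraries at 12.6 to 21.4 FPKM. It was the 1 gene of the 9 called there, against 6.41% of the tested genes called in either direction, 3.32% higher and 3.08% lower. With 5 libraries and 2 residual degrees of freedom, none passed after adjustment, and the smallest adjusted p from limma among the 9 was 0.691.

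Other genes of the pathway were read from lists. Of 17 further YAP and TAZ targets, 13 passed the filter. In HepG2, 2 were called lower, AXL and PTPN14, against 1.27% of the tested genes, and none higher, against 0.877%. The median was -0.69 against -0.03 for all tested genes. AXL, a receptor tyrosine kinase, read 10.4 and 4.26 FPKM in the HepG2 WT libraries against 2.16 and 0.194 FPKM in the HepG2 SR libraries, a log2 change of -1.996 (0.61, unadjusted p = 0.0138). PTPN14, a phosphatase that binds YAP1, read 8.73 and 3.76 FPKM against 2.82 and 0.861 FPKM, a log2 change of -1.35 (0.52).

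In Huh7 none of the 13 was called, against 1.87% of the tested genes. AXL stood at 8.72 and 6.93 FPKM in WT and at 4.91 and 2.98 FPKM in SR. PTPN14 stood at 5.17 and 4.49 FPKM in WT and at 3.08 and 2.29 FPKM in SR. For both genes the SR libraries were below the WT libraries without overlap, as for 12.9% of the tested genes. The largest change in size was that of GADD45A, at -1.17 (1.05). Over both lines AXL at -1.43 (0.43, unadjusted p = 0.0132) and PTPN14 at -1.01 (0.37, unadjusted p = 0.0291) were again called lower. Among the tested genes 2.03% were called lower by limma. PTPN14 had all 4 SR libraries below all 4 WT libraries, as 2.17% of the tested genes did. The list was not uniform, with 10 of 13 below 0 over both lines, against 55.1% of the tested genes. Its range was from -1.43 to 0.99. In the 5 like libraries AXL was the 1 gene of the 13 called, at -1.17 (0.43, unadjusted p = 0.0446), against 6.41% of the tested genes. PTPN14 was not called there, at -0.79 (0.40, unadjusted p = 0.107), and the median of the 13 was -0.27.

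The Hippo kinases and their upstream regulators, 25 genes of which 20 passed the filter, gave no calls in HepG2, in Huh7 or over both lines. The shares of the tested genes called were 2.14%, 1.87% and 3.93%. Over both lines all 20 were below 0, as 55.1% of the tested genes were. Their median was -0.28 against -0.05 for all tested genes. The largest was MAP4K4, a kinase upstream of LATS, at -1.05 (0.89). MAP4K4 levels were 263 and 279 FPKM in HepG2 WT, 152 and 25.8 FPKM in HepG2 SR, 17.7 and 74.6 FPKM in Huh7 WT, and 11.3 and 111 FPKM in Huh7 SR. SAV1, the scaffold of the MST kinases, stood at -0.80 (0.42), and WWC3, an upstream regulator, at -1.32 (0.87) in HepG2. In Huh7 the largest were WWC1 at -0.46 and STK3, which encodes an MST kinase, at -0.45. In the 5 like libraries none of the 20 was called, against 6.41% of the tested genes. There 18 were below 0, and the median was -0.26 against -0.05 for all tested genes. MAP4K4 stood there at -0.23 (0.38) and SAV1 at -0.25 (0.23).

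Of 7 other TEAD and VGLL genes, 4 passed the filter. None was called in HepG2, in Huh7 or over both lines, against 2.14%, 1.87% and 3.93% of the tested genes. In HepG2 TEAD4 stood at -1.01 (0.62) and TEAD2 at 0.56 (0.52). VGLL4, a cofactor that competes with YAP1 for TEAD, stood at -0.47 (0.42) in Huh7 and TEAD3 at 0.16 (0.62). Over both lines TEAD4 stood at -0.46 and VGLL4 at -0.40. In the 5 like libraries none of the 4 was called, and TEAD4 stood at 0.04 (0.20) and VGLL4 at -0.45 (0.24).

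Immediate early genes respond to serum and growth signals within minutes and include the AP-1 subunits. Of 12, 11 passed the filter, and for all 11 both HepG2 SR libraries were below both HepG2 WT libraries (20.1% of the tested genes), with a median of -1.40. EGR1 at -2.56 (0.88, unadjusted p = 0.0234) and IER2 at -0.97 (0.40, unadjusted p = 0.0479) were called lower, 2 of the 11. Among the tested genes 1.27% were called lower in HepG2 by limma. EGR1, a zinc finger factor, read 23.5 and 31.4 FPKM in the HepG2 WT libraries against 7.76 and 1.61 FPKM in the HepG2 SR libraries.

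In Huh7 none of the 11 was called, against 1.87% of the tested genes, and the median was -0.53. ATF3 stood at -1.76 (0.87) and FOSL1, an AP-1 subunit, at -1.53 (1.21). Above 0 were 4 of the 11, among them FOS at 1.19 (1.36) and EGR1 at 0.42 (0.88). The difference between the lines was called for EGR1, at 2.98 (1.245, unadjusted p = 0.0490 from limma), against 0.606% of the tested genes. Its adjusted p from limma was 0.9998. Over both lines FOSL1 at -2.11 (0.86, unadjusted p = 0.0445) and ATF3 at -1.58 (0.62, unadjusted p = 0.0383) were called lower. Both were also called in the 5 like libraries, FOSL1 at -1.40 (0.46, unadjusted p = 0.0317) and ATF3 at -1.19 (0.30, unadjusted p = 0.0129). EGR1 stood there at -0.95 (0.47) and was not called. The shares of the tested genes called lower were 2.03% over both lines and 3.08% in the 5 like libraries. The summed level of the 12 was 349 and 273 FPKM in HepG2 WT, 161 and 76.6 FPKM in HepG2 SR, 294 and 263 FPKM in Huh7 WT, and 268 and 153 FPKM in Huh7 SR. The summed levels thus had every SR library below every WT library in HepG2 and not in Huh7. Their part in the levels of CCN1, CCN2 and ANKRD1 was not tested.

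**Figure D4:**
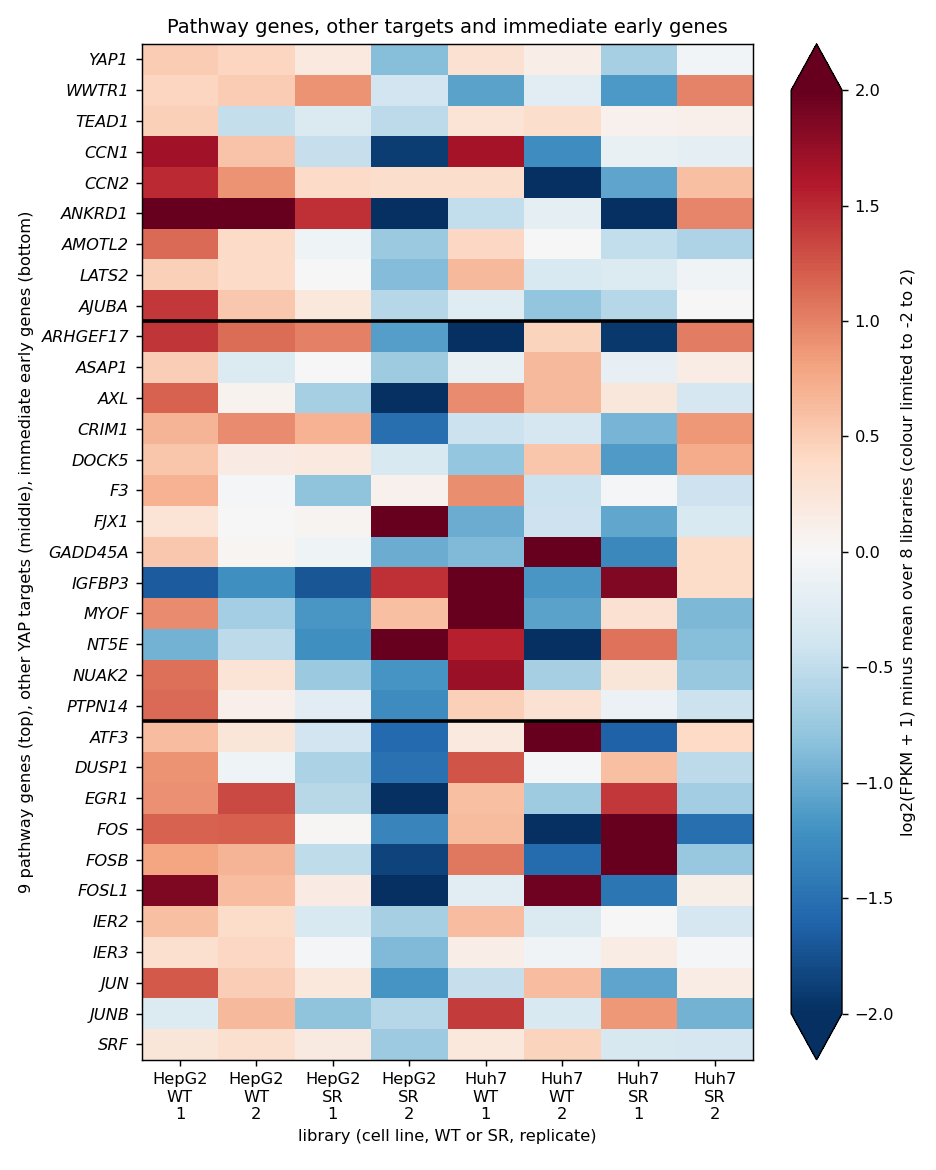
Log2(FPKM + 1) minus the gene's mean over the 8 libraries, shown as colour, for the 9 genes (top), 13 other YAP and TAZ targets (middle) and 11 immediate early genes (bottom) in each library (columns). HepG2 WT replicate 1 is above the mean for all 9 genes of the top block and HepG2 SR replicate 2 is below it for 8 of them, while IGFBP3 and NT5E in the middle block run the other way in both libraries.

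The summed level of biliary markers was lowest in the 3 libraries that stood apart. The hepatocyte sum did not divide the libraries in that way. KRT19, EPCAM and SPP1 were each lowest in these 3, whereas KRT7 and SOX9 were not, with SOX9 at 54.1 FPKM in HepG2 SR replicate 2. Of the hepatocyte markers, FGB stood at 128 to 380 FPKM in these 3 and at no more than 4.51 FPKM elsewhere. AHSG stood at no more than 175 FPKM in these 3 and at 663 FPKM or more elsewhere. The other hepatocyte markers showed no such division. The summed level of 10 hepatocyte markers lay between 6382 and 8070 FPKM in the HepG2 libraries and at 639 and 1771 FPKM in Huh7 WT and 881 and 8222 FPKM in Huh7 SR. HepG2 SR replicate 2, which stood apart, held 7843 FPKM of these. The summed level of 5 biliary markers was 1083 and 576 FPKM in HepG2 WT, 1283 and 71.6 FPKM in HepG2 SR, 15.5 and 428 FPKM in Huh7 WT, and 16.2 and 1020 FPKM in Huh7 SR. ANKRD1 and WWTR1 each had their 3 lowest levels in the 3 libraries with KRT19 at 2.37 FPKM or less. The margins were small. ANKRD1 stood at 21.6 FPKM in Huh7 WT replicate 1 and 26.7 FPKM in Huh7 WT replicate 2. WWTR1 stood at 11.1 FPKM in HepG2 SR replicate 2 and 12.6 FPKM in Huh7 WT replicate 2. None of the other genes of the 9 had this division, and LATS2 was at its highest, 13.3 FPKM, in Huh7 WT replicate 1. The share of the tested genes with the same division was not counted. Markers of other cell types were low, with a summed level of at most 8.92 FPKM for 6 stromal genes and 4.52 FPKM for 3 endothelial genes. The 4 leukocyte markers summed to between 4.17 and 29.1 FPKM, of which CD68 was the largest part, and PTPRC reached no more than 0.0258 FPKM in any library. The part of these markers in the differences was not tested.

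The genes most like YAP1, CCN1 and CCN2 were looked for among the tested genes outside the 9. They were those with the smallest mean absolute difference in log2(FPKM + 1) over the 8 libraries after each gene was centred. For YAP1 these were SLC43A2, TRIM14 and SGPL1, at 0.0933 to 0.123, against YAP1's own mean absolute deviation of 0.394, and the closest of the 9 genes was LATS2 at 0.186. For CCN1 they were MYL9 at 0.357, NUAK2 at 0.435 and ENSG00000229425 at 0.459, against CCN1's own 0.982, and LATS2 was again the closest of the 9, at 0.637. NUAK2, a kinase, is itself one of the further YAP and TAZ targets listed above. For CCN2 they were GLDC at 0.507, PEG10 at 0.545 and TSPEAR-AS1 at 0.573, against CCN2's own 1.02, with AJUBA the closest of the 9 at 0.677. Among the 9, CCN1 was thus not the closest to CCN2, nor CCN2 the closest to CCN1.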

How the data were processed

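Gene expression in 8 libraries was deposited by the authors as FPKM, 1 value per Ensembl gene and library, without pooling. The authors enriched polyadenylated RNA and used a NEBNext kit. The submitters' processing notes name fastp 0.20.0 and GRCh38, and the aligner, counter, annotation and use of strand are not given in the sources used here. FPKM are not counts, so the authors' edgeR test could not be repeated. Samples were grouped by their labels. Symbols were found for 62666 of 63241 identifiers, and positions came from GENCODE release 29.

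log2(FPKM + 1) was tested with limma 3.58.1 in R 4.3.3 (lmFit, eBayes with trend), on 15173 genes that reached 1 FPKM in 2 or more libraries, with 4 residual degrees of freedom. Fold changes on this scale understate those of weakly expressed genes. Adjustment was by Benjamini-Hochberg over all tested genes. The fit was tested on simulated data. Depth is unknown, so no counting error is given.

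The 9 genes and the lists were chosen with earlier results of these data known. Genes named from the pathway lists were those called in each of HepG2, Huh7 and both lines, at most 4 by size, or the 2 largest where none was called, and marker genes were summed. GADD45A, ATF3, ALB, KRT19, KRT7, SOX9, EPCAM, SPP1, FGB, AHSG, FOS, CD68, PTPRC, IGFBP3 and NT5E were also named after their values were seen. The 5 like libraries were chosen from expression profiles. Alternatives were the pseudocount, the filter, the scaling, eBayes without trend, the replicate number as a term, each line alone, the adjusted p, and fits without each library in turn. Python 3.11.15 was used with pandas 2.3.3 and NumPy 2.4.6, and figures were drawn in matplotlib 3.10.9.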

Additional observations from a re-analysis of the deposited data

How the results depend on the processing

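The number of the 9 genes called in HepG2, 3 as reported, was 1 with no filter on low values, 1 without the trend, 1 with each line fitted alone, and 0 after adjustment or in the 5 like libraries with group means. It ran from 0 to 6 when each library was left out in turn. In Huh7 the number, 0 as reported, moved in the 5 like libraries and with a library left out. Over both lines, 1 as reported became 2 after rescaling to a common sum, 2 after quantile normalization, 2 with the replicate number as a block and 0 after adjustment. It also moved with a library left out. Between the lines, 1 as reported became 0 with no filter, 0 after rescaling, 0 after quantile normalization, 0 without the trend and 0 after adjustment. It also moved in the 5 like libraries and with a library left out. For the difference between lines, 0 as reported moved in the 5 like libraries and with a library left out. Separated genes over both lines became 2 after quantile normalization. With a library left out, genes with SR below WT ran from 7 to 9 in HepG2, 3 to 5 in Huh7 and 1 to 4 over both lines. In the same settings, the 9 in HepG2 stood against 44.5% of the tested genes. The 5 in Huh7 stood against 31% or 29.8%, and the 4 over both lines against 3.05%. Genes with SR above WT reached 1 in HepG2 (31.7%), 4 in Huh7 (25.3% or 26%) and 0 over both lines (at most 3.78%). Where a single library was left in a group, it was assumed to vary like the other groups. The 5-library fits by group means and the settings for separated genes were chosen after seeing the data. Of all genes tested in each setting, 0.956% were called in HepG2 with no filter, 2.12% without the trend and 3.16% with each line alone. Over both lines the shares were 4.3% after rescaling, 3.84% after quantile normalization and 3.4% with the block. Between the lines they were 1.78% with no filter, 4.97% after rescaling, 4.88% after quantile normalization and 4.76% without the trend. The 5-library group means left 1 residual degree of freedom. The cause of these shifts was not tested.

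Direction turned for WWTR1 in HepG2 (0.43 in the 5 like libraries, and from -0.85 to 0.43 with a library left out) and for TEAD1 in HepG2 (from -0.88 to 0.071). In Huh7, in the 5 like libraries, CCN1 was 1.06, ANKRD1 1.19 and LATS2 0.22. With a library left out in Huh7, WWTR1 ran from -0.50 to 1.64, CCN1 from -1.83 to 1.08, CCN2 from -0.57 to 2.80, ANKRD1 from -2.83 to 1.34, AJUBA from -0.052 to 0.52 and LATS2 from -0.82 to 0.13. Over both lines WWTR1 ran from -0.36 to 0.71 and CCN2 from -0.70 to 0.98. AMOTL2 and YAP1 kept a change below 0 in each comparison of SR with WT under all settings run.

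Rescaling to a common sum moved the median of all tested genes to -0.10 in HepG2 and to -0.12 in Huh7 and over both lines. It also moved the share of called genes that were higher from 40.9% to 25.1% in HepG2, from 50.5% to 33% in Huh7 and from 48.3% to 29.7% over both lines. The number of all genes called in HepG2, 325, was 504 with a filter at 0.1 FPKM, and in Huh7, 283, was 124 with each line alone. Over the fits that drop 1 library, these numbers lay between 57 (without HepG2 SR replicate 2) and 1749 (without HepG2 SR replicate 1) in HepG2, between 154 (without HepG2 WT replicate 2) and 818 (without Huh7 WT replicate 1) in Huh7, and between 193 (without HepG2 WT replicate 1) and 1277 (without HepG2 SR replicate 1) over both lines. With the replicate number as a block, 3 of the 9 genes were called in HepG2 and 2 over both lines, AMOTL2 and CCN1. The shares of the tested genes called there were 2.16% and 3.4%. The numbers were not taken to pair the libraries. Deviations of same-numbered libraries correlated at 0.125 between HepG2 WT and HepG2 SR and at 0.796 between Huh7 WT and Huh7 SR. Between HepG2 SR and Huh7 SR the value was -0.562, which does not bear on pairing within a line. A fit without pairs leaves a difference shared by same-numbered Huh7 libraries in its spread. Huh7 was not fitted alone with such pairs.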
